A study of Mus musculus with 24 samples.

Results

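Acta2, Tagln, Cnn1, Cnn2, Myl9, Tpm1, Tpm2, Tpm4, Actn1 and Flna encode smooth muscle alpha-actin and proteins that decorate, cross-link or contract actin filaments. They were taken by symbol from the Gencode mouse annotation, and all 10 were found among the 49671 genes counted and passed the filter on low counts that kept 19691 genes. Cnn1 and Tpm2 passed through the primary astrocytes: a filter asking for 10 counts in every library kept the other 8 members. RNA-seq was done on 24 libraries, 4 in each of 6 groups of mouse neural cells, to set astrocytes made from stem cells beside primary astrocytes of different ages and states. NSC were neural stem cells at passage 50 to 60, kept in EGF and FGF at 20 ng/ml, and AGES were astrocytes made from them with 20 ng/ml BMP4 over 3 to 5 days. Both came from a single embryonic stem cell line, GSC-5003 (C57Bl/6 N), so their replicates were independent cultures of 1 line. NSC grew on gelatin and AGES on poly-L-ornithine and laminin, in the same base medium. For AGES the methods name BMP4 as the supplement and no EGF or FGF. BMP4 therefore cannot be told apart from the loss of EGF and FGF or from the coating. The primary astrocytes came from C57BL/6J mice by magnetic sorting on the surface antigen ACSA-2, with both sexes mixed. Neonatal astrocytes (neoAC) came from mice of 4 to 8 days by a neural tissue dissociation kit, with the meninges removed and 2 brains pooled. Adult astrocytes (AdAC) came from mice of 100 to 140 days by an adult brain dissociation kit, with debris and red blood cells removed. Removal of meninges is not stated for adults, so age cannot be told apart from isolation in any comparison of neonatal with adult cells. Primary cells of both ages came from 2 mice per isolation. For direct adult isolation the methods also state that olfactory bulb and cerebellum were taken off. A difference in tissue between AdAC direct and AdAC CellC therefore cannot be told apart from culture. Each was used straight after sorting (neoAC direct, AdAC direct) or after 7 to 10 days in AstroMACS medium on poly-L-lysine and laminin (neoAC CellC, AdAC CellC). AGES and the primary cultures thus differed in medium and coating as well as in origin.

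Actin filaments bundled by alpha-actinin and filamin, and pulled by myosin, form the stress fibres of adherent cells. Smooth muscle cells, pericytes and myofibroblasts add a specialised set to this machinery, with alpha-actin, transgelin, calponin, a smooth muscle myosin light chain and particular tropomyosins. Many of these genes carry CArG boxes bound by serum response factor (SRF), whose partners of the MRTF family move into the nucleus when free actin monomers run low, and many also respond to TEAD factors.

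The libraries held 27904126 to 37997368 counts with a median of 32239904. Levels are given as CPM, that is counts relative to the library's total after scaling by the TMM method, on which 3 counts in a library correspond to 0.0786 to 0.117 CPM. The 9 astrocyte markers checked summed to 54580 to 59250 CPM in AGES, 20080 to 22700 in neoAC direct, 14120 to 14600 in AdAC direct and 6550 to 7628 in neoAC CellC. These sums follow a few abundant genes: between AGES and neoAC CellC 3 of the 9 were higher, 3 lower and 3 not called, with a median log2 difference of 0.19. In AdAC CellC the same sum was 906 to 1387 CPM, below the 1985 to 2503 CPM of NSC, so the summed markers of the labelled cell type were lowest in that group. Several libraries stood at an edge of their group for most members. In AdAC CellC replicate 1 was the highest for 9 of 10 members and replicate 2 the lowest for 7, and in neoAC CellC replicate 3 was the lowest for 10 of 10 and replicate 4 the highest for 7. In AdAC direct replicate 2 was the lowest for 7, and in neoAC direct replicate 2 was the highest for 7. That neoAC direct library also had the highest sums of its group for endothelial markers (392 CPM against 99.8 to 155 CPM), pericyte markers (1321 against 817 to 987 CPM) and microglia markers (55.7 against 10.95 to 19.8 CPM), and their part in its levels was not tested. The summed level of 6 oligodendrocyte markers was 3852 CPM in AdAC CellC replicate 1 and 7243 to 9722 CPM in the other 3, and its part in the members' levels was not tested.

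Promoter sequence was read from RefSeq (GRCm38.p6) for 9 of the 10 members, and the 250 bases before each RefSeq start were searched. Gencode places exons in part of these windows. Exons covered 217 of the 250 bases for Acta2, 194 for Actn1, 193 for Tpm1, 106 for Tpm2 and 44 or fewer for the rest. The matches in Acta2, Tpm1 and Flna lay inside the Gencode bounds of these genes, so they are not upstream of every annotated start. Tagln was not matched. CArG boxes were searched on both strands in the strict form and in a form with 1 G or C in the A/T core, and the TEAD element as CATTCC on both strands. The strict box occurred in Cnn2 and Myl9 and in 1.47% of 32851 promoter windows. The relaxed box occurred in Acta2 and Myl9 and in 7.24% of the windows, and CATTCC or its complement in Acta2, Tpm1 and Flna and in 12.6% of the windows. No matched element overlapped another, and a match describes letters in a window only. Acta2, Cnn2 and Myl9 are shown because they were the members with a box of either form, Tpm1 and Flna because they held the TEAD letters, and Cnn1 because it moved furthest in adult culture with neither element in its window. Capitals mark the CArG boxes or the TEAD letters.
Acta2, relaxed CArG box, chr19:34255438-34255467, minus strand: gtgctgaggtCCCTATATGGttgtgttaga
Acta2, relaxed CArG box, chr19:34255388-34255417, minus strand: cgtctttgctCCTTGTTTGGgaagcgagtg
Acta2, TEAD letters, chr19:34255502-34255531, minus strand: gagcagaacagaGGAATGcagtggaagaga
Cnn2, strict CArG box, chr10:79988350-79988583, plus strand: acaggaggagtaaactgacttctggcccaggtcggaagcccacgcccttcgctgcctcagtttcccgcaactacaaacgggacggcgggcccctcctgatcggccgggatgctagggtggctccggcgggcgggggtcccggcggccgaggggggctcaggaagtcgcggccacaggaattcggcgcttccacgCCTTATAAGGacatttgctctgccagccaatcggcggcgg
Myl9, strict then relaxed CArG box, chr2:156775214-156775419, plus strand: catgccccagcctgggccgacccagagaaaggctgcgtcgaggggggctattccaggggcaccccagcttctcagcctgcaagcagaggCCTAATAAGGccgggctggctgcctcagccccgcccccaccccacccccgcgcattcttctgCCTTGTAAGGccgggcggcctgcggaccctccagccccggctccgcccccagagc
Cnn1, neither element, chr9:22099003-22099215, plus strand: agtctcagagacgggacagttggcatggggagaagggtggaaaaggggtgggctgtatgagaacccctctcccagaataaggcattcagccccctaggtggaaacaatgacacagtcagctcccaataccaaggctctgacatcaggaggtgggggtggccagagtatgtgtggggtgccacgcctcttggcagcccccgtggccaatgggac
Tpm1, TEAD letters, chr9:67049252-67049281, minus strand: tggctgtcctaaGGAATGcggtcgcccccc
Flna, TEAD letters, chrX:74246663-74246692, minus strand: ggcgttgtggggCATTCCaacgggaggggc
The strict box of Cnn2 lay at -56 to -47 from the start and that of Myl9 at -161 to -152. Tpm2, Tpm4 and Actn1 held neither element in their windows, which says only that these letters are not there.

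Together the 10 genes took 0.802% ± 0.0657 of all counts in AdAC CellC (SD, n = 4 here and throughout), 0.361% ± 0.0570 in neoAC CellC and 0.212% ± 0.0192 in AGES. They took 0.102% ± 0.00467 in NSC, 0.0562% ± 0.00240 in AdAC direct and 0.0550% ± 0.00321 in neoAC direct. Every member had its highest mean in AdAC CellC. Levels per length were divided by all annotated exons of a gene, whichever the cells use, so they compare genes only roughly. On that scale the level was highest for Tagln (428 ± 39.0 CPM per kb) and Acta2 (370 ± 38 CPM per kb) in AdAC CellC. The same genes led in neoAC CellC, at 328 ± 66.0 and 195 ± 69.2 CPM per kb. In AdAC direct Acta2 led the members at 31.8 ± 4.08 CPM per kb. In NSC and neoAC direct it was Tpm4, at mean levels of 149 and 45.7 CPM per kb, and in AGES it was Flna, at 160 CPM per kb.

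**Figure D1:**
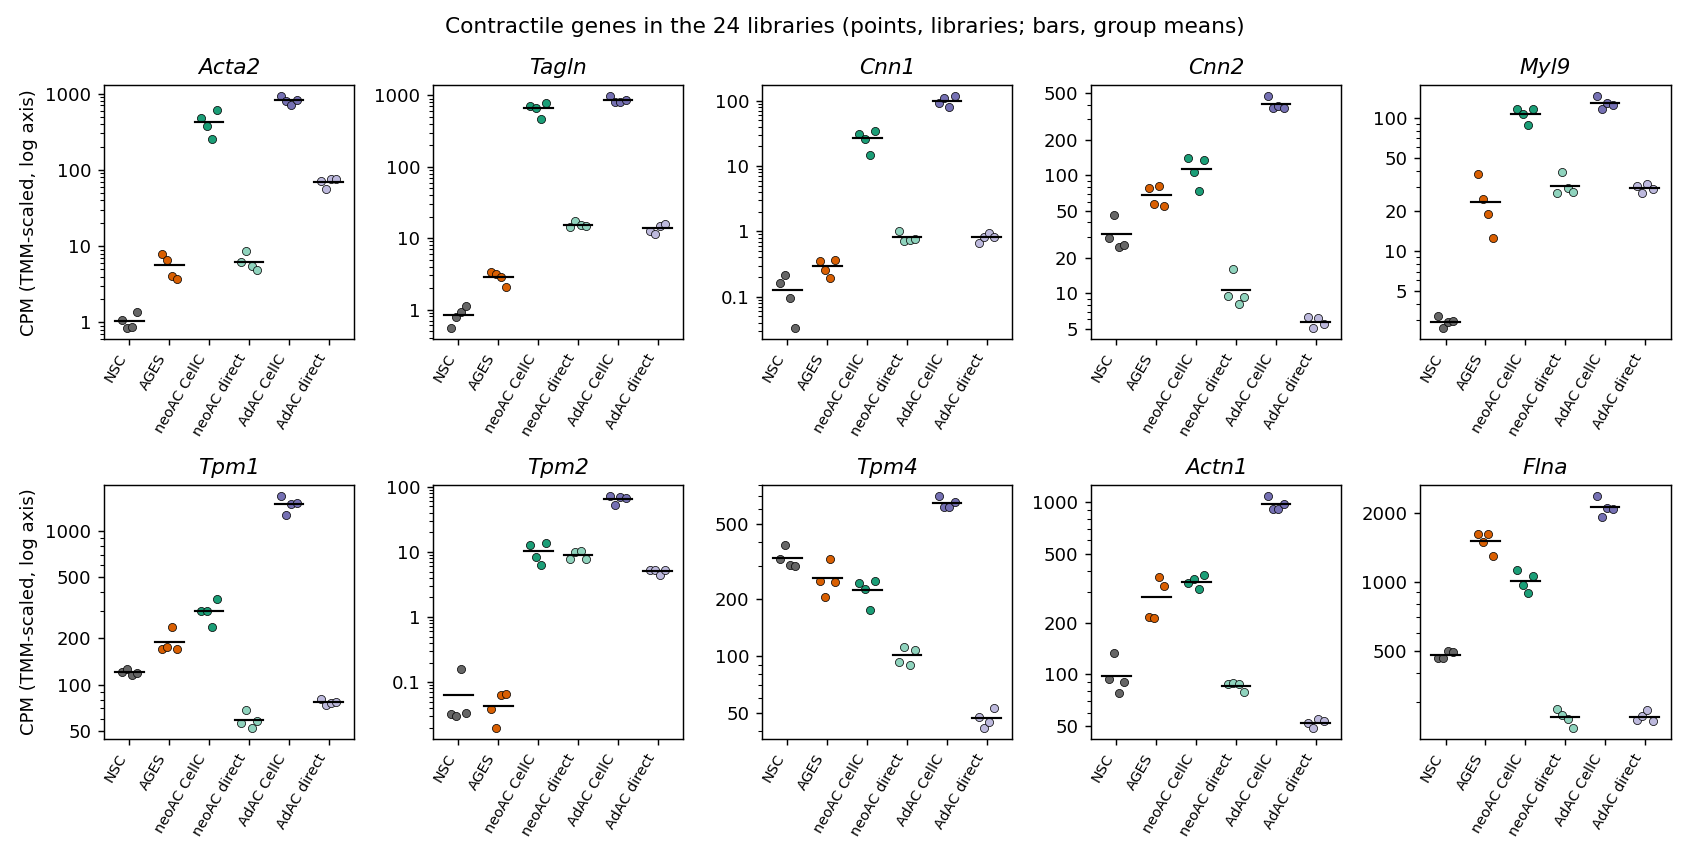
CPM on a log axis of each of the 10 genes in the 24 libraries, with points for libraries and bars for group means (n = 4), and values under 0.02 CPM drawn at 0.02. AdAC CellC is the highest group in all 10 panels, and Acta2, Tagln, Cnn1, Myl9 and Tpm2 are low in NSC while Cnn2, Tpm1, Tpm4, Actn1 and Flna are not.

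The comparison of cultured with directly isolated adult astrocytes holds culture together with any difference in tissue or cell make-up. All 10 members rose in adult culture, by 4.33-fold for Myl9 to 120-fold for Cnn1. Of all genes tested, 38.8% were higher in AdAC CellC and 39.2% lower, at an adjusted p under 0.05 in edgeR's quasi-likelihood test. The median log2 fold change was 4.00 over the members and 0.00 over all genes tested. In neonatal culture 9 members rose and none fell, the exception being Tpm2, whose log2 difference was 0.19 (edgeR adjusted p = 0.378). With library size alone Tpm2 had 0.42 and was called (edgeR adjusted p = 0.045), a scaling under which the median of all genes was 0.27. Here 34.4% of all genes were higher and 31.3% lower, and the median log2 fold change was 2.18 over the members and 0.04 over all genes. The difference between the culture effects, adult minus neonatal, was called higher in adult for 8 members (35.4% of all genes) and lower for Acta2 alone (33.2% of all genes). For Myl9 it was 0.33 with an edgeR adjusted p of 0.301. Fewer cells of a type and less RNA per cell cannot be told apart in these bulk libraries.

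**Figure D2:**
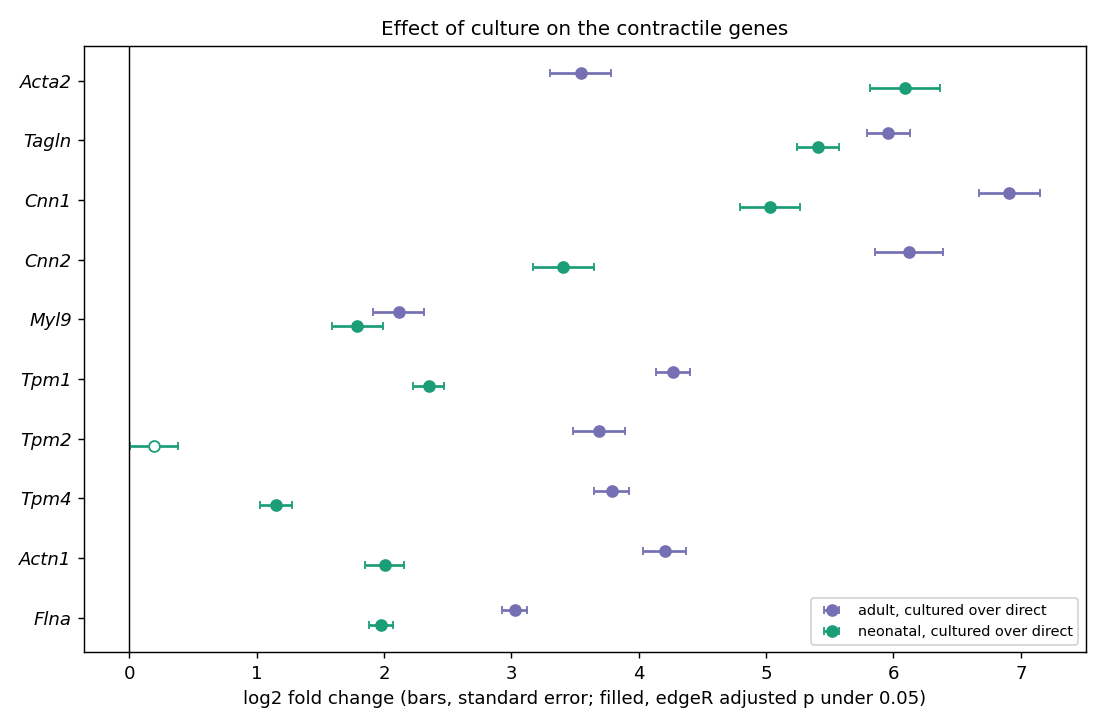
Log2 fold change of each member in CellC over direct libraries, adult in purple and neonatal in green (bars, standard error; n = 4 against 4; open points, adjusted p of 0.05 or more). The adult value exceeds the neonatal one in every gene except Acta2, with 3.54 against 6.09 (the difference was not called for Myl9), and Tpm2 in neonatal astrocytes is the only open point.

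Acta2, the actin of smooth muscle (chr19:34241090-34255590, minus strand, GRCm38), measured 484, 372, 252 and 607 CPM in the neoAC CellC libraries against 6.18, 8.56, 5.44 and 4.86 CPM in neoAC direct. In AdAC CellC the libraries held 916, 799, 713 and 825 CPM and in AdAC direct 70.5, 56.8, 75.9 and 75.7 CPM. Cultured and direct libraries did not overlap at either age, and the direct libraries of the 2 ages did not overlap either. Acta2 rose 68.2-fold in neonatal culture (log2 6.09, SE 0.28, edgeR adjusted p = 9.54e-15). In adult culture the log2 fold change was 3.54 (SE 0.24, edgeR adjusted p = 4.24e-12), so that the difference between the effects was -2.55 (SE 0.32, edgeR adjusted p = 3.12e-07). Adult direct astrocytes started 11.1-fold above neonatal ones (log2 -3.47 for neonatal minus adult, SE 0.25, edgeR adjusted p = 2.09e-11). Beside this, Myh11, the myosin heavy chain that defines smooth muscle, had mean levels of 10.8 CPM in AdAC direct and 2.59 CPM in neoAC direct. Of 5 smooth muscle markers 0 were higher and 3 lower in neoAC direct than in AdAC direct (35.0% and 36.4% of all genes). The pericyte gene Rgs5 had 81.9 CPM in AdAC direct and 170 CPM in neoAC direct. Of 8 pericyte markers, however, 3 were higher and 1 lower in neoAC direct, with a median log2 difference of 0.07. The part of these cell types in the Acta2 difference was not tested. In NSC Acta2 was at 1.08, 0.85, 0.86 and 1.37 CPM and in AGES at 7.998, 6.53, 4.07 and 3.75 CPM, higher in AGES in every library (log2 2.42, SE 0.32, edgeR adjusted p = 4.18e-07). AGES and neoAC direct were neighbours in the order of levels and did not differ beyond their spread (log2 difference 0.18, edgeR adjusted p = 0.543).

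Tagln encodes transgelin, a calponin-related protein that binds actin filaments and serves as an early marker of the smooth muscle programme (chr9:45929619-45936058, minus strand). Its libraries held 466 to 767 CPM in neoAC CellC, 793 to 961 CPM in AdAC CellC and 11.3 to 17.1 CPM in both direct groups. The direct groups overlapped. Tagln rose in both cultures, with log2 fold changes of 5.96 in adult (SE 0.17, edgeR adjusted p = 9.03e-20) and 5.40 in neonatal astrocytes (SE 0.17, edgeR adjusted p = 1.11e-18). The difference between those effects was 0.56 (SE 0.20, edgeR adjusted p = 0.0158), a call lost under 4 of 8 alternatives, with adjusted p-values of 0.055 in DESeq2's test and 0.0741 in edgeR with library size alone. In NSC it was at 0.554, 0.789, 0.923 and 1.14 CPM and in AGES at 3.32, 3.16, 2.82 and 2.04 CPM, with no overlap. Exons of Tagln share 1241 bases with the antisense gene Gm48529 and 108 bases with Pcsk7 on the opposite strand, and without the strand setting of the counting their reads could not be separated there. Mean counts per library ranged over the groups from 55.8 to 121 for Gm48529 and from 926 to 1440 for Pcsk7.

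Cnn1, calponin 1, which in smooth muscle restrains actomyosin (chr9:22099216-22109630, plus strand), was the member that moved furthest in adult culture. Its libraries held 91.4, 111, 80.0 and 116 CPM in AdAC CellC and 0.674, 0.834, 0.951 and 0.818 CPM in AdAC direct. All cultured libraries were far above all direct ones. The log2 fold change was 6.91 (SE 0.24, edgeR adjusted p = 2.98e-18). Neonatal cultures held 31.4, 25.9, 15 and 33.9 CPM against 1.01, 0.720, 0.747 and 0.765 CPM in neoAC direct (log2 5.03, SE 0.23, edgeR adjusted p = 2.09e-15). The direct groups had like levels, 0.810 ± 0.133 CPM in neonatal and 0.819 ± 0.113 CPM in adult, and the adult effect exceeded the neonatal one by 1.88 on the log2 scale. In NSC Cnn1 rested on 16 counts over the 4 libraries, and in AGES on 35.

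Cnn2, the calponin of non-muscle cells (chr10:79988584-79996062, plus strand), showed another order of groups. In AdAC CellC it was at 468, 373, 388 and 375 CPM and in AdAC direct at 6.25, 5.10, 6.15 and 5.53 CPM (log2 6.12, SE 0.27, edgeR adjusted p = 2.2e-15). In neoAC CellC it was at 140, 106, 73.2 and 136 CPM and in neoAC direct at 9.46, 16.0, 8.09 and 9.25 CPM (log2 3.41, SE 0.24, edgeR adjusted p = 1.87e-11). Directly isolated astrocytes of both ages held the lowest levels of all groups, below NSC with 29.5, 46.1, 24.9 and 26.0 CPM. AGES held 78.1, 57.3, 82.0 and 55.2 CPM, all above NSC (log2 1.11).

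Myl9, the regulatory light chain of smooth muscle and non-muscle myosin whose phosphorylation switches contraction on (chr2:156775420-156781658, plus strand), had the smallest rise in adult culture. It measured 145, 116, 129 and 126 CPM in AdAC CellC and 30.7, 27.4, 31.7 and 29.1 CPM in AdAC direct (log2 2.12, SE 0.20, edgeR adjusted p = 1.51e-09). In neonatal astrocytes it measured 117, 107, 88.5 and 116 CPM in culture and 27.4, 39.2, 29.7 and 27.6 CPM directly (log2 1.79, SE 0.20, edgeR adjusted p = 4.02e-08). The cultures of both ages overlapped, and so did the direct groups. Among the members Myl9 had the greatest fold change between AGES and NSC, 7.96-fold (log2 2.99, SE 0.23, edgeR adjusted p = 5.49e-11), with 38.1, 24.4, 19.0 and 12.5 CPM in AGES and 3.26, 2.64, 2.90 and 2.98 CPM in NSC. The AGES libraries spread widely, yet each was above every NSC library.

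The tropomyosins lie along the actin filament and set which myosins and binding proteins reach it. Tpm1 (chr9:67022590-67049406, minus strand) ranged from 1270 to 1678 CPM in AdAC CellC, from 237 to 362 CPM in neoAC CellC, and from 52.6 to 80.1 CPM in the direct groups. Its log2 fold change was 4.27 in adult (SE 0.13, edgeR adjusted p = 3.49e-19) and 2.35 in neonatal culture (SE 0.12, edgeR adjusted p = 1.37e-14). AGES held 170, 175, 237 and 169 CPM and NSC 121, 127, 116 and 119 CPM, without overlap. Tpm4, the non-muscle tropomyosin gene (chr8:72134975-72153142, plus strand), was at 700, 617, 612 and 652 CPM in AdAC CellC and 47.2, 41.8, 44.6 and 53.3 CPM in AdAC direct, and rose by 3.79 on the log2 scale (SE 0.14, edgeR adjusted p = 6.8e-18). In neonatal culture it measured 244, 226, 175 and 248 CPM against 93.3, 112, 89.5 and 108 CPM directly, a log2 fold change of 1.15 (SE 0.13, edgeR adjusted p = 1.53e-08). Tpm4 was the 1 member called lower in AGES (249, 206, 328 and 247 CPM) than in NSC (324, 388, 304 and 298 CPM). The libraries of AGES and NSC overlapped, the log2 difference was -0.35 (edgeR adjusted p = 0.0151), and the call was lost under 6 of the 8 alternatives that kept all libraries, with DESeq2's test giving an adjusted p of 0.0854, and without NSC replicate 2 (edgeR adjusted p = 0.0738) or AGES replicate 2 (edgeR adjusted p = 0.0779).

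Tpm2, the tropomyosin of smooth and slow skeletal muscle (chr4:43514711-43523765, minus strand), departed from the other members. In neonatal astrocytes it was at 12.7, 8.49, 6.26 and 13.8 CPM in culture and 7.93, 10.02, 10.2 and 7.85 CPM directly, and those groups overlapped. In adult astrocytes it was at 71.8, 52.5, 69.9 and 66.9 CPM in culture and 5.29, 5.22, 4.49 and 5.27 CPM directly, far apart (log2 3.69, SE 0.20, edgeR adjusted p = 1.41e-14). The difference between the effects was 3.49 (SE 0.27, edgeR adjusted p = 2.39e-11), the greatest of the members. AGES held 5 Tpm2 counts in 4 libraries and NSC 8, so no fold is given between them. Per count, AdAC CellC was 1589.0 times AGES with a 95% counting interval of 680.6 to 4894.9, and neoAC CellC was 248.7 times AGES with an interval of 106.3 to 767.2. The 8 NSC counts fell as 1, 1, 5 and 1 over the libraries. Intervals of this kind cover counting error only.

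Actn1 and Flna join actin filaments to one another and to adhesions. Actn1, alpha-actinin 1 (chr12:80167547-80260371, minus strand), ranged from 911 to 1080 CPM in AdAC CellC, 313 to 375 CPM in neoAC CellC and 49.2 to 89.1 CPM in the direct groups. It rose in adult culture by 4.20 on the log2 scale (SE 0.17, edgeR adjusted p = 3.16e-17) and in neonatal culture by 2.01 (SE 0.15, edgeR adjusted p = 1.87e-11). In AGES its libraries held 216, 212, 365 and 325 CPM, the pair with the higher Actn1 being the pair with the lower Acta2. In NSC they held 93.5, 132, 77.5 and 89.9 CPM. Flna, filamin A (chrX:74223461-74249820, minus strand), was the member in which AGES came closest to AdAC CellC: 1611, 1489, 1620 and 1297 CPM against 2357, 1912, 2089 and 2066 CPM. In neoAC CellC it measured 1129, 965, 890 and 1055 CPM, below every AGES library, and in NSC 465, 464, 499 and 494 CPM. The direct groups held 232 to 278 CPM at both ages and did not differ beyond their spread (log2 difference -0.01, edgeR adjusted p = 0.909). Flna rose in culture by 3.02 in adult (SE 0.10, edgeR adjusted p = 5.34e-19) and 1.98 in neonatal astrocytes (SE 0.09, edgeR adjusted p = 1.99e-15) on the log2 scale.

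AGES were compared with the NSCs they came from and with the cultured primary astrocytes they are meant to stand in for. Against NSC, 7 members were higher in AGES, namely Acta2, Tagln, Cnn2, Myl9, Tpm1, Actn1 and Flna (31.7% of all genes), 1 was lower (34.0% of all genes), and Cnn1 and Tpm2 were not called. For Cnn1 the log2 difference was 1.15 (edgeR adjusted p = 0.0681), and it was called higher in DESeq2's test (adjusted p = 0.018), with DESeq2 size factors (edgeR adjusted p = 0.0494) and without NSC replicate 2 (edgeR adjusted p = 0.0486). The median log2 fold change over the members was 1.33. Against AdAC CellC, 10 of 10 members were lower in AGES (45.2% of all genes were lower and 31.0% higher). Cnn1 and Tpm2, with 35 and 5 counts in AGES, passed the filter only through the primary astrocytes. Their lower level in AGES was thus built in by the filter, here and against neoAC CellC. Apart from these, the log2 differences ran from -0.49 for Flna to -8.23 for Tagln, and Cnn1 had -8.41. The median log2 difference was -2.77 over the members and -0.23 over all genes. Against neoAC CellC, 7 members were lower (40.5% of all genes) and Flna was higher, by 0.58 on the log2 scale with an edgeR adjusted p of 2.58e-06 (34.1% of all genes). Tpm4 and Actn1 had log2 differences of 0.21 (edgeR adjusted p = 0.138) and -0.30 (edgeR adjusted p = 0.063). Actn1 was called lower in AGES under 4 of 8 alternatives that kept all libraries, among them DESeq2's test (adjusted p = 0.0278) and library size alone (log2 -0.61, edgeR adjusted p = 0.000297). It was also called without AGES replicate 3 (edgeR adjusted p = 0.0058), AGES replicate 4 (0.0293) or neoAC CellC replicate 3 (0.047), and Tpm4 was called higher without AGES replicate 2 (log2 0.30, edgeR adjusted p = 0.0374). The members with log2 differences of -6 or beyond were Acta2 (-6.27), Tagln (-7.85) and Cnn1 (-6.51), beside the few Tpm2 counts. These comparisons share the AGES libraries.

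**Figure D3:**
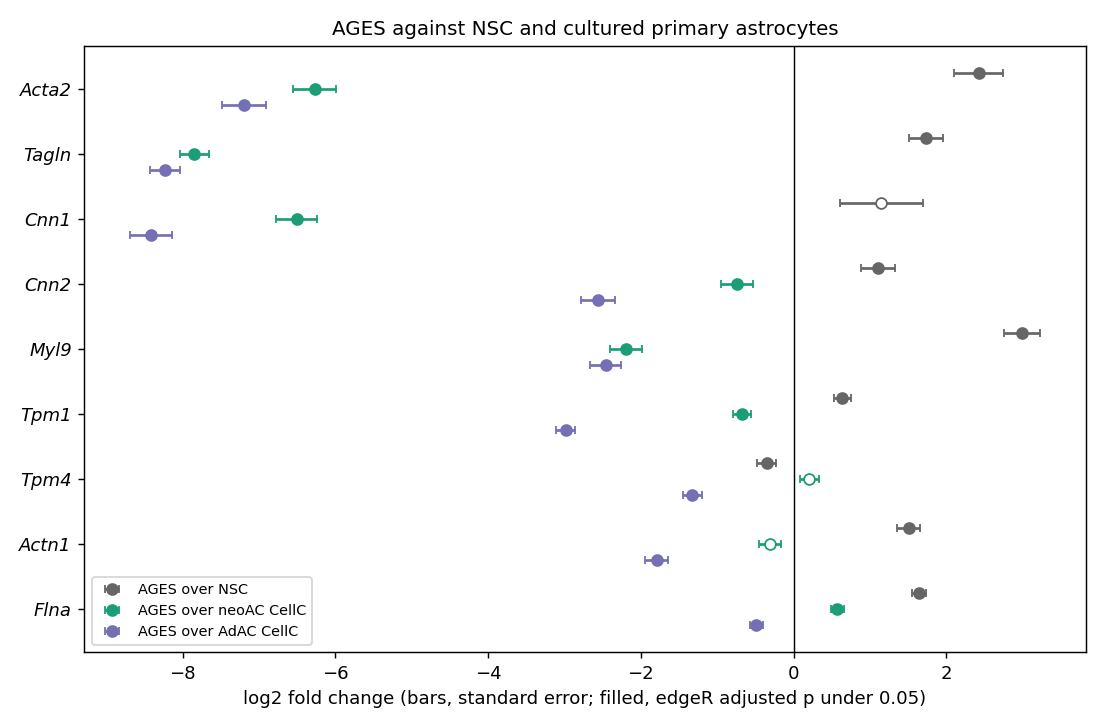
Log2 fold change of AGES over NSC (grey), over neoAC CellC (green) and over AdAC CellC (purple) for 9 members (bars, standard error; n = 4 against 4; open points, adjusted p of 0.05 or more), without Tpm2, which rests on 5 counts in AGES. Acta2, Tagln and Cnn1 (35 counts in AGES) lie below -6 against both cultures, and Flna lies at 0.58 and -0.49.

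Age was compared within each state, always together with the isolation used at that age. In culture, 9 members were lower in neonatal than in adult astrocytes (35.2% of all genes) and 0 higher (28.5% of all genes), with a median log2 difference of -1.51. The greatest differences were in Tpm2 (log2 -2.66) and Tpm1 (-2.31), the smallest called ones in Acta2 (-0.92, edgeR adjusted p = 0.000765) and Tagln (-0.38, edgeR adjusted p = 0.0159). Myl9 had -0.27 with an edgeR adjusted p of 0.235. The Tagln call was lost under 7 of 8 alternatives that kept all libraries (adjusted p = 0.107 in DESeq2's test), without neoAC CellC replicate 3 (log2 -0.24, edgeR adjusted p = 0.112) and without AdAC CellC replicate 1 (log2 -0.31, edgeR adjusted p = 0.0692). Directly after isolation 4 members were higher in neonatal astrocytes (35.0% of all genes): Cnn2 by 0.90, Tpm2 by 0.83, Tpm4 by 1.11 and Actn1 by 0.71 on the log2 scale. Acta2 (log2 -3.47) and Tpm1 (-0.38) were lower (36.4% of all genes). Tagln, Cnn1, Myl9 and Flna were not called, with log2 differences between -0.03 and 0.17, and the median over the 10 members was 0.12.

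When the 6 groups were ordered by level for each member, 37 of the 50 neighbouring pairs were called different and 13 were not. The pairs that did not differ beyond their spread were mostly the 2 direct groups (Tagln, Cnn1, Myl9 and Flna) and AGES beside a primary group (Acta2, Myl9, Tpm4 and Actn1). NSC were below AdAC CellC in 10 of 10 members (77.3% of all genes differed in either direction) and below neoAC CellC in 9, with Tpm4 higher in NSC (80.6%). Cnn1 and Tpm2 were lower in NSC and AGES than in every primary group, which was built in by the filter they passed only through those groups. Against neoAC direct, NSC were higher in 4 members and lower in 5 (80.0% of all genes differed), and against AdAC direct higher in 5 and lower in 5 (86.2%). AGES were higher than neoAC direct in 5 members and lower in 3 (73.8% of all genes differed), and higher than AdAC direct in 5 and lower in 4 (80.4%). Across ages and states, neoAC CellC was higher than AdAC direct in 10 of 10 (74.0%), and neoAC direct lower than AdAC CellC in 10 of 10 (70.7%). Most genes differed in each of these pairs. Those shares join both directions, so only members called in either direction can be set against them, not the counts higher or lower alone.

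Over the 24 libraries the members fell into patterns that are described here from their values. On the log2 CPM scale Acta2, Tagln, Cnn1, Myl9 and Tpm2 correlated with one another at Pearson r of 0.81 to 0.97, and Cnn2, Tpm1, Tpm4, Actn1 and Flna at 0.80 to 0.97. Between the sets r ran from -0.01 (Tpm2 with Tpm4) to 0.81. The libraries share their groups, so these values mostly describe the 6 group means: in NSC the first set had means of 0.0639 to 2.94 CPM and the second of 31.6 to 481 CPM. The genes outside the list most like Acta2 were Lrp2 (r = 0.99), Anxa5, Ltbp2, Pdlim1 and Myof (each 0.97) among 12559 genes of at least 10 CPM in 1 group. Those most like the mean of the standardized members were Ccn4 (0.99), Vgll3 (0.98), Elobl (0.97), Shh (0.96) and Ssu72 (0.96).

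Within their families the members took changing shares of the level per length. Acta2 was 17.4% of the actins in AdAC CellC and 16.0% in neoAC CellC, 6.01% in AdAC direct and 0.363% in neoAC direct, and 0.220% and 0.0437% in AGES and NSC, where Actb and Actg1, the actins of all cells, made up nearly everything. Reads that fit several of the near-identical actin genes could not be assigned with certainty. Tagln was 70.4% of the transgelins in neoAC CellC and 63.8% in AdAC CellC, but 9.44% and 5.06% in neoAC direct and AdAC direct, where Tagln3, the neuronal paralog, led. Cnn3 stayed the main calponin in every group, while Cnn2 took 33.6% and Cnn1 7.49% in AdAC CellC. Myl9 was 46.5% of its family of regulatory light chains in neoAC CellC, 36.2% in AdAC CellC, 38.6% and 38.2% in neoAC direct and AdAC direct, 11.4% in AGES and 2.16% in NSC. Per length, Tpm4 was the leading tropomyosin in every group with 39.6% to 64.2%, and Tpm1 took 37.0% in AdAC CellC and 7.98% in NSC. This order rests on annotated exon lengths of 2203 bases for Tpm4 and 6485 for Tpm1. By CPM alone Tpm1 was above Tpm4 in AdAC CellC (1485 against 645), neoAC CellC (300 against 223) and AdAC direct (76.9 against 46.7). Actn1 made up 52.4% of the actinins in neoAC CellC (48.5% to 54.4% over the libraries), 50.7% in AdAC CellC (49.45% to 52.4%) and 20.6% in AdAC direct.

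**Figure D4:**
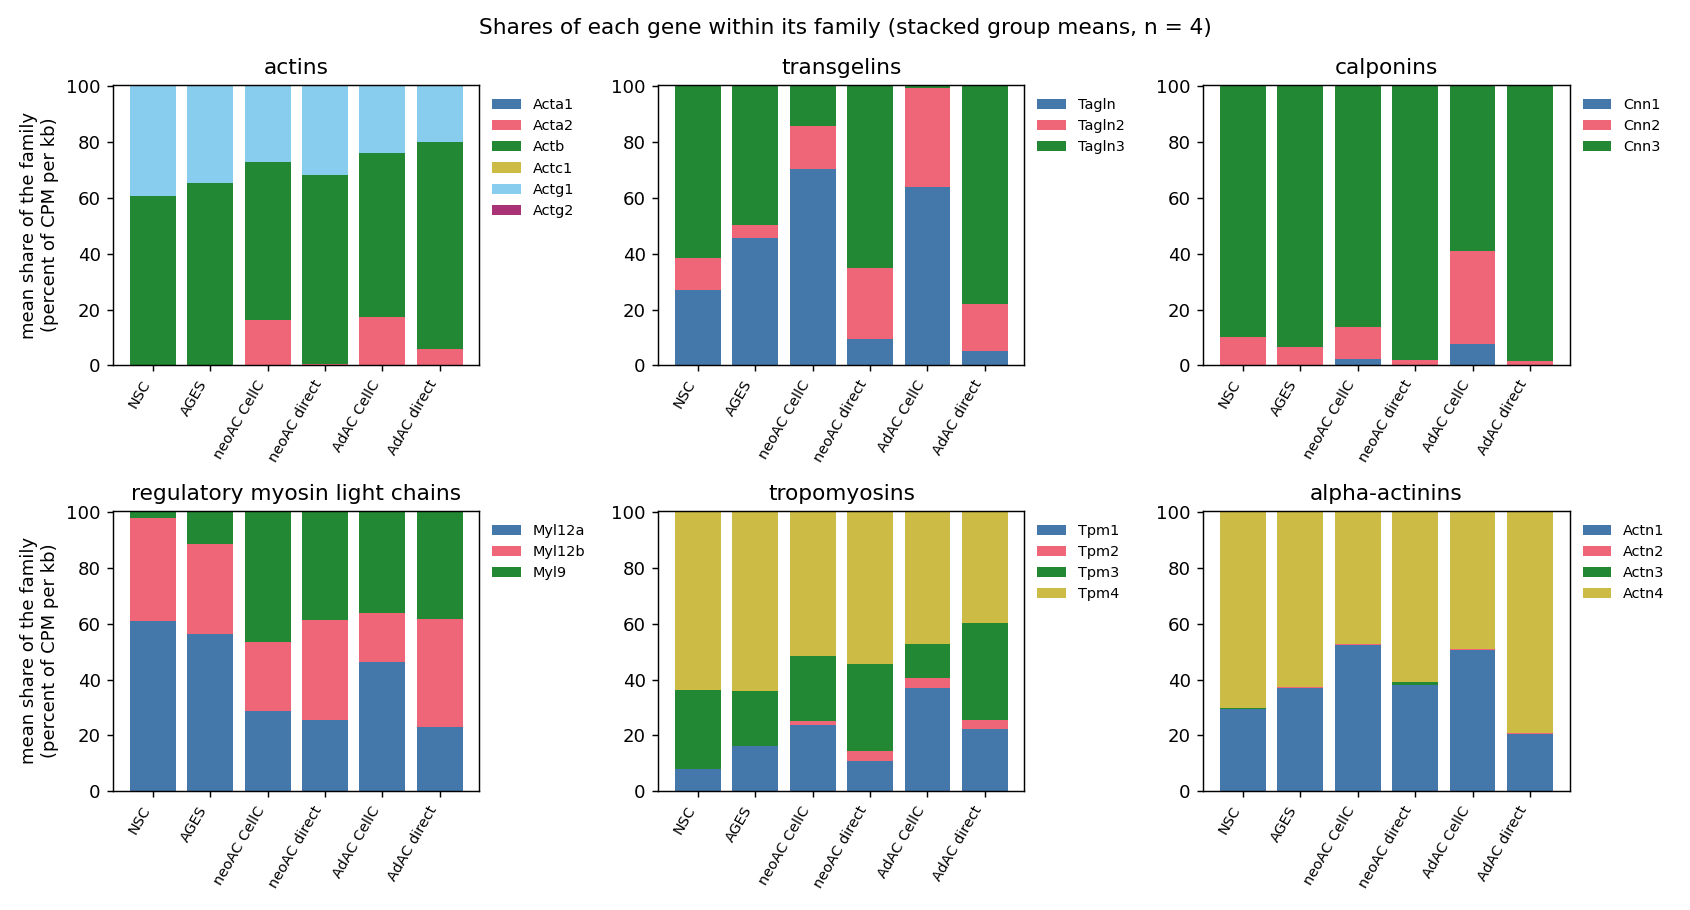
Stacked bars of the mean share of each gene in its family (percent of CPM per kb, n = 4 per group, 6 families), in the 6 groups. Acta2 is visible among the actins of the cultured groups and AdAC direct, and Tagln takes 70.4% and 63.8% of the transgelins in the cultures but 9.44% and 5.06% in the direct groups.

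The paralogs also rose in culture. Of 16 tested, 15 were higher and 1 lower in adult culture (38.8% and 39.2% of all genes), and 13 higher and 1 lower in neonatal culture (34.4% and 31.3%). Actb rose by 1.66 on the log2 scale in adult (edgeR adjusted p = 1.19e-13) and by 0.35 in neonatal culture (edgeR adjusted p = 0.00335). Tagln2, the widely expressed transgelin, rose by 3.36 and 1.78. Tagln3 was the one that fell in adult culture, with a log2 fold change of -4.78. In AGES against NSC 9 of the 16 were higher and 1 lower (31.7% and 34.0% of all genes), with a median log2 fold change of 0.44.

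Other genes of smooth muscle differentiation moved less evenly. Of 8 tested, 6 rose and 0 fell in adult culture (38.8% and 39.2% of all genes), and 4 rose and 2 fell in neonatal culture (34.4% and 31.3%). Cald1, caldesmon, which binds actin and tropomyosin, had log2 fold changes of 3.06 and 2.61 (edgeR adjusted p = 8.9e-15 and 3.93e-13). Lmod1, a smooth muscle actin nucleator, rose by 3.57 and 5.49 on the log2 scale. Myh11, at a mean of 21.2 CPM in AdAC CellC, rose by 0.98 in adult culture (edgeR adjusted p = 0.00031) and fell by 1.11 in neonatal culture (edgeR adjusted p = 0.000754). Myocd, the coactivator that defines the smooth muscle lineage, stayed at a mean of 0.924 CPM or less, and no read of it was counted in NSC or AGES. Synpo2, an actin-bundling protein, had a log2 fold change of 3.75 in neonatal culture and -0.13 (edgeR adjusted p = 0.50) in adult culture. In AGES against NSC 4 of the 8 rose and 1 fell (31.7% and 34.0% of all genes), with Mylk, the kinase that phosphorylates myosin light chains, at a log2 fold change of 4.38 and Smtn, smoothelin, at -3.59.

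Regulators and targets of SRF and MRTF were counted in the same way. Of 12 targets, 11 rose and 1 fell in adult culture, 8 rose and 3 fell in neonatal culture, and 7 rose and 3 fell in AGES against NSC. The shares of all genes that rose and fell were 38.8% and 39.2%, 34.4% and 31.3%, and 31.7% and 34.0% in these comparisons. Ccn2, a matricellular protein, had mean levels of 669 CPM in AdAC CellC, 451 in neoAC CellC, 11.6 in neoAC direct and 3.51 in AdAC direct, and rose by 7.58 and 5.28 on the log2 scale in adult and neonatal culture. Ccn1, its relative, rose by 3.35 in adult culture and fell by 1.02 in neonatal culture, where the direct libraries already held a mean of 1002 CPM. Csrp1, a LIM protein, fell by 1.77 and 1.05. Among 13 regulators 10 rose and 3 fell in adult culture, while 3 rose and 3 fell in neonatal culture, which is below the shares of all genes there. Srf itself rose by 0.74 in adult (edgeR adjusted p = 1.42e-06) and fell by 0.77 in neonatal culture (edgeR adjusted p = 1.19e-06), and the difference between these effects was 1.51 (edgeR adjusted p = 5.26e-09). Mrtfa rose by 0.97 in adult culture and had -0.18 in neonatal culture (edgeR adjusted p = 0.201).

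The motor and its upstream signal were counted as well. Of 9 genes of non-muscle myosin and its switch, 6 rose and 1 fell in each culture (38.8% and 39.2% of all genes in adult, 34.4% and 31.3% in neonatal), with Myh9, the heavy chain IIA, rising by 3.53 and 2.48 and Myh10, the heavy chain IIB, by 2.54 and 0.76 on the log2 scale. Of 12 genes of the TGF-beta pathway, a known inducer of alpha-actin in fibroblasts, 10 rose and 1 fell in adult culture, and 4 rose and 7 fell in neonatal culture, against the same shares of all genes. Tgfb1 rose by 3.53 in adult and fell by 1.78 in neonatal culture, and Tgfb3 rose by 3.37 and 2.37. In AGES against NSC 4 of the 12 rose and 4 fell, close to the 31.7% and 34.0% of all genes.

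Markers of other cell types in the brain were measured beside the members. The culture counts below stand beside 38.8% of all genes higher and 39.2% lower in adult culture. In neonatal culture these shares were 34.4% and 31.3%. The 8 pericyte markers summed to 817 to 1321 CPM in neoAC direct and 116 to 142 CPM in neoAC CellC, and 8 of 8 fell in neonatal culture. In adult astrocytes the sum went from 467 to 496 CPM directly to 191 to 234 CPM in culture, and 7 of 8 fell. The defining pericyte gene Kcnj8 had mean levels of 0.0429 CPM in the neonatal and 0.262 CPM in the adult cultures, against 7.61 and 8.66 CPM in the direct groups. The 5 smooth muscle markers summed to 141 to 166 CPM in AdAC CellC, 59.0 to 68.5 CPM in AdAC direct, 50.8 to 76.0 CPM in neoAC CellC and 21.9 to 38.3 CPM in neoAC direct, and 5 of 5 rose in adult culture while 2 rose and 2 fell in neonatal culture. In NSC they summed to 149 to 184.5 CPM, almost all of it Smtn with a mean of 165 CPM, and in AGES to 16.8 to 23.3 CPM. The 7 fibroblast markers summed to 1068 to 1550 CPM in AdAC CellC, 450 to 700.2 CPM in neoAC CellC, 205 to 342 CPM in neoAC direct, 85.4 to 101.5 CPM in AdAC direct and 11.7 to 16.7 CPM in NSC and AGES. In each culture 5 of 7 rose and 1 fell, with Col1a1, a chain of type I collagen and the main part of the culture sums, at mean levels of 813 CPM in the adult and 191 CPM in the neonatal cultures. In neoAC CellC against AdAC CellC 4 fibroblast markers were higher and 2 lower (28.5% and 35.2% of all genes). In AGES against NSC 0 were higher and 1 lower (31.7% and 34.0%), with 3 of the 7 at 3 counts or fewer in every AGES library. AGES were lower than AdAC CellC in 6 and higher in 1 (45.2% and 31.0%), and lower than neoAC CellC in 7 of 7 (40.5%). Directly after isolation 7 of 7 were higher in neonatal astrocytes (35.0%). The 8 endothelial markers summed to 99.8 to 392 CPM in neoAC direct and 43.7 to 71.5 CPM in neoAC CellC, and to 94.5 to 101.4 and 75.5 to 87.1 CPM in AdAC direct and AdAC CellC. Of the 9 astrocyte markers, 8 fell in adult culture, and 7 fell and 1 rose in neonatal culture. The 6 oligodendrocyte markers summed to 24720 to 27110 CPM in AdAC direct, 3852 to 9722 CPM in AdAC CellC and 252 to 399.5 CPM in both neonatal groups. The 7 microglia markers summed to at most 55.7 CPM and the 5 neuron markers to at most 192 CPM in any library. The part of these cell types in the members' levels was not tested.

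**Figure D5:**
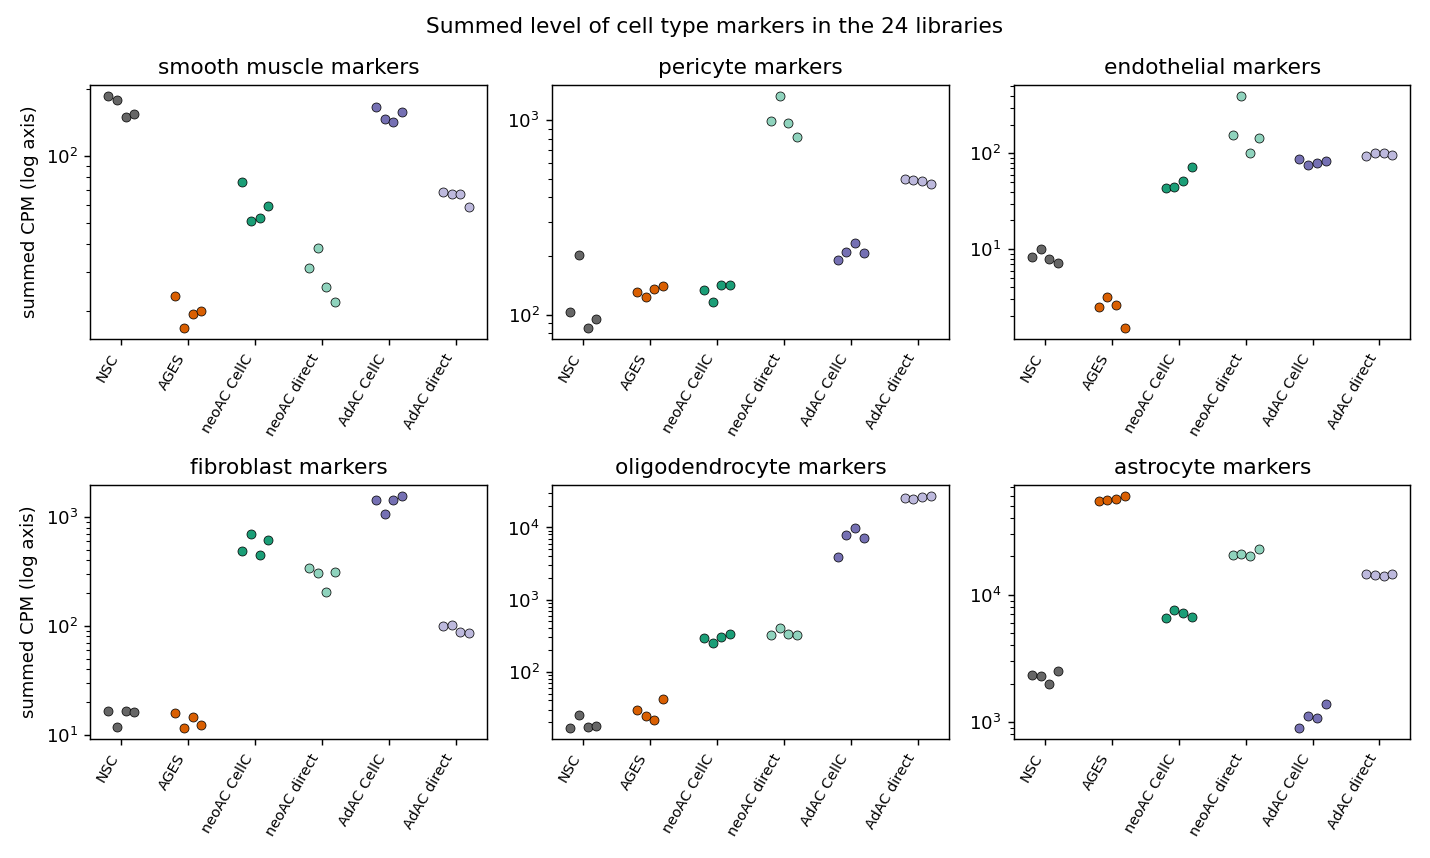
Summed CPM on log axes of 6 sets of cell type markers in the 24 libraries, 4 points per group. Pericyte sums are lower in the cultured than in the direct groups, and the astrocyte sum is lowest in AdAC CellC with 906 to 1387 CPM. The fibroblast sum, mostly Col1a1 in the cultures, is highest in AdAC CellC with 1068 to 1550 CPM. By gene, 4 of 7 fibroblast markers were higher and 2 lower in neoAC CellC than in AdAC CellC.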

How the data were processed

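RNA was sequenced from poly-A selected, stranded, paired-end libraries of 24 samples. The authors aligned the reads with STAR 2.7.3a, keeping reads with up to 20 alignments, to GRCm38 and counted them per gene over exons with featureCounts (Gencode vM12), and the deposited values were raw counts per gene; the strand setting of the counting was not given in the sources used here. Gene positions and exon lengths came from Gencode vM21 on the same build (99.5% of gene IDs matched).

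Groups were taken from the GEO labels, with isolations or cultures as replicates (n = 4). The counts as deposited were fitted in 1 model of 6 groups with edgeR 4.0.16 (R 4.3.3; filterByExpr, TMM scaling, robust quasi-likelihood test), with Benjamini-Hochberg adjustment over 19691 genes and a threshold of 0.05. Standard errors were derived from the log2 fold change and the F statistic. Levels per length were CPM divided by the exon union in kb. Correlations used log2 CPM with a prior count of 2. Counting intervals were exact at 95%. On simulated counts for the adult culture comparison with 200 changed genes, the test called 169, all with the right sign, and 3 unchanged genes among 17947. In the real comparison 38.8% of genes were called higher and 39.2% lower. The simulation changed far fewer, so it does not show the error rates at the real setting.

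The alternatives were size factors or the Wald test of DESeq2 1.42.0, library size alone, no filter, at least 10 counts in every library, a log2 fold change over 1, only the compared groups, a replicate block and leaving out each library. The deviations of same-numbered samples from their groups correlated at -0.0953 to 0.1061 over 28 pairs. Replicate numbers were therefore not treated as pairs, though these values cannot exclude shared isolations. No library duplicated another. The genes named were all members, genes of the lists that were highest or departed from their list, and the 5 genes most correlated with Acta2 and with the member mean. The members and lists were chosen with earlier results of these data known. Protein sequences were not used here. Some genes of the lists are counted but not reported here by name.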

Additional observations from a re-analysis of the deposited data

Results flagged for a closer look

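In 6 of 60 combinations of member and group, 1 library lay far from the other 3 by Dixon's test at the 95% level. Chance gives about 1 in 20 such groups. Replicate 1 of neoAC direct had 1.008 CPM of Cnn1, and replicate 1 of AdAC CellC had 467.8 CPM of Cnn2, both above their groups. Replicate 3 of AGES was high for Tpm1 at 237.3 CPM, and replicate 3 of NSC for Tpm2 at 0.1592 CPM, which was 5 counts. Replicate 3 of AdAC direct was low for Tpm2 at 4.487 CPM, and replicate 4 of neoAC direct for Actn1 at 78.97 CPM.

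The culture effect differed between adult and neonatal astrocytes in 9 members, by the test of the difference itself (adjusted p under 0.05 in edgeR). Adult minus neonatal, the log2 difference was -2.5475 for Acta2, 0.5556 for Tagln, 1.8790 for Cnn1, 2.7163 for Cnn2, 1.9215 for Tpm1, 3.4941 for Tpm2, 2.6381 for Tpm4, 2.1974 for Actn1 and 1.0480 for Flna. For Acta2 the direct groups differed already (69.7 CPM in adult against 6.26 CPM in neonatal), while for Tagln and Cnn1 the direct levels of both ages overlapped.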

How the results depend on the processing

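Of 1342 member results under the alternatives, 1285 kept their direction and their side of the threshold, 31 fell below it, 13 passed it and 13 changed sign, none of the last past the threshold in the reported fit. The 10 rises in adult culture and the 10 lower members in AGES against AdAC CellC were among the counts that moved by less than 1.5 times. The 1 member lower in AGES than in NSC, Tpm4, became 0 with DESeq2 size factors, no filter, 10 counts in every library, DESeq2's test, a log2 fold change over 1 and only the compared groups, and 0 to 1 when single libraries were left out. The 8 members with the greater rise in adult culture became 5 with 10 counts in every library, where 8 members and 11977 genes were tested. With a log2 fold change over 1, members higher in AGES than in neoAC CellC became 0 (1 to 2 without single libraries, 2 without AGES replicate 2), and those higher and lower in neoAC direct than in AdAC direct became 1 and 1.

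Signs changed only in differences that were not called. With library size alone Tpm4 in AGES against neoAC CellC was -0.1014 and Myl9 between the direct groups -0.0100, and this scaling moved the median log2 difference of all genes in AGES against neoAC CellC from -0.07 to -0.37. Between the direct groups (neonatal minus adult) Cnn1 was 0.0137 and Flna 0.0292 with no filter, and 0.0053 and 0.0155 with only those groups. Leaving out single libraries, Cnn1 there ran from -0.1468 to 0.0488, Myl9 from -0.0740 to 0.1168 and Flna from -0.0529 to 0.0339, while Tpm2 in AGES against NSC, which rests on 13 counts, ran from -0.8849 to 0.3284. The causes were not tested.

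With the replicate number as a block, Cnn1 in AGES against NSC passed the threshold (log2 1.15, edgeR adjusted p = 0.0338), as it did with DESeq2's test and size factors and without NSC replicate 2. No other member's call changed under the block, and genes called in adult culture went from 15366 to 15333. The labels give the replicate numbers no further meaning, so the block is not read further. Depth limits Tpm2 and Cnn1 in NSC and AGES, and the sum over a mixed sample limits all members, since no value here separates cell types.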
